A study of Homo sapiens with 12 samples.

Results

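The genes described here are the JAK-STAT kinases JAK1 and JAK2, the transcription factors STAT3, STAT5A and STAT5B, and the feedback and target genes SOCS1, SOCS3, CISH and PIM1. They were taken from the mRNA table by symbol, 9 of its 19659 genes, with the FPKM of their 26 transcripts (of 83027) summed per gene. FPKM is a fragment count scaled by transcript length and by the size of the library. Symbols were chosen by name and not by their values, but with earlier results of these data known.

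The groups were 3 RNA-Seq libraries of cells given DMAG, an ellagic acid glucoside from the burnet Sanguisorba officinalis, at 40 µg/ml for 3 days, and 3 control libraries with no dose or day recorded and no vehicle named. The cells of both groups are labelled HEL, an erythroleukaemia line known to carry an activating mutation of JAK2. Alleles were not analysed here. The title places the study in growth inhibition and megakaryocytic differentiation, and the comparison made here asks which JAK-STAT mRNAs differed with DMAG. Whether the libraries of a group stem from independent cultures is not stated, and the spread behind each p may therefore be technical.

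In this pathway a cytokine receptor brings together JAK tyrosine kinases, which phosphorylate the receptor and then the STAT proteins bound to it. STATs pair up, enter the nucleus and bind a palindromic DNA element, the gamma-activated site, TTCNNNGAA. Among the genes they switch on are CISH and the SOCS genes, whose proteins block receptors and kinases and so close a feedback loop, and PIM1, a serine/threonine kinase that favours survival. In blood cells JAK2 with STAT5 carries signals of erythropoietin and thrombopoietin, while JAK1 with STAT3 serves interleukin-6 and its relatives.

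The labelled line was set against its markers, and 2 of its 15 erythroid and megakaryocytic genes averaged 0.5 FPKM or more, EPOR in every library and ALAS2 through DMAG replicate 3. GATA1 averaged 0.0474 FPKM with DMAG and 0.0484 FPKM in controls. ITGA2B averaged 0.291 FPKM with DMAG and 0.0826 FPKM in controls, below the filter and not tested. Of 10 megakaryocyte genes, ITGA2B included, 0 averaged 1 FPKM or more. Their sums overlapped, between 0.848 and 1.59 FPKM with DMAG and between 0.892 and 0.965 FPKM in controls. The erythropoietin receptor gene EPOR was present at 4.49 ± 0.131 FPKM with DMAG and 3.71 ± 0.270 FPKM in controls. Genes of granulocyte precursors, with MPO and PRTN3 the most abundant, summed to between 1212 and 1426 FPKM with DMAG and between 2179 and 2347 FPKM in controls, with 8 of 10 at 1 FPKM or more. They did not move together. MPO, PRTN3, ELANE and CTSG were lower with DMAG, AZU1, CEBPE and CSF3R were higher, and CD33 did not pass (limma adjusted p under 0.05). Genes of monocytes summed to between 431 and 480 FPKM with DMAG and between 168 and 173 FPKM in controls, nearly all of it LYZ. Of these 10 genes, 2 averaged 1 FPKM or more, and both were higher with DMAG. They were LYZ (limma adjusted p = 2.5e-05) and ITGAM, at 4.68 ± 0.329 FPKM with DMAG and 1.57 ± 0.136 FPKM in controls (adjusted p = 1.3e-04). FCN1 did not pass (adjusted p = 0.16), while CD14 and CSF1R averaged under 0.5 FPKM. Erythroid genes summed to 1949 FPKM in DMAG replicate 3, against at most 0.648 FPKM in DMAG replicates 1 and 2 and 0.780 FPKM in controls. Most of it was adult globin, with HBB at 1367 FPKM, and whether it came from the labelled cells was not tested. The part of these shifts in the results that follow was not tested. In bulk RNA fewer cells of a type and less RNA per cell cannot be told apart.

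The promoter of CISH is shown because it is the textbook STAT5 response element of this gene set. It held the only matches to TTCNNNGAA found in the 17 promoter windows of the 9 genes. The window runs from 250 bases before to 50 bases after the gene's start (RefSeq, GRCh38.p14, chr3:50611725-50612024, minus strand, printed 5′ to 3′ along the gene), with the matches in capitals:

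CISH promoter: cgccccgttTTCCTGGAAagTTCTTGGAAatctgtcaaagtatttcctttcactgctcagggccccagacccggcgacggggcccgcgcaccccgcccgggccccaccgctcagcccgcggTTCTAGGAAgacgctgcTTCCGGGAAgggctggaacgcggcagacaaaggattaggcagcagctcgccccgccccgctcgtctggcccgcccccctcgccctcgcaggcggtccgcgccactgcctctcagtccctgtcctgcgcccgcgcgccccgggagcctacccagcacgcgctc

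Its matches are TTCCTGGAA at -241 to -233, TTCTTGGAA at -230 to -222, TTCTAGGAA at -129 to -121 and TTCCGGGAA at -112 to -104, where -1 is the base just before the start. The motif reads the same on both strands, and no matches overlapped. Of 35116 RefSeq promoter windows of 300 bases, 7.66% held at least 1 match, and 7 held 4, the most in any window. The other 16 windows of the 9 genes held no match, and sequence outside the windows was not searched. A match is a description of the sequence and not evidence of binding.

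Of the 9 genes, 8 averaged at least 0.5 FPKM and were tested, and SOCS3 lay below that level. The 4 genes STAT3, STAT5B, JAK1 and PIM1 were higher with DMAG, JAK2 and STAT5A were lower, and SOCS1 and CISH did not pass (limma on log2(FPKM + 1), adjusted p under 0.05 over all 10394 genes tested). That is 6 of 8 genes called, where 48.6% of all genes were called, 22.4% higher and 26.1% lower. The median log2 change of the 8 genes was 0.18, against -0.01 over all genes tested. The libraries of the groups did not overlap for the same 6 genes, and for 59.5% of all genes tested. The deposited FPKM summed to between 328350 and 332916 in DMAG libraries and to between 348907 and 357821 in control libraries, while mitochondrially encoded genes held 3.79% to 4.28% with DMAG and 3.66% to 4.44% in controls. Rescaling every library to a common total after removal of those genes also let more genes pass the filter. Of 11233 genes then tested 3457 were higher and 1926 lower, against 2333 and 2717 as deposited, and the median log2 change of all genes was 0.09. Of the 9 JAK-STAT genes, all tested on that scale, 4 were higher and 1 lower.

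**Figure D1:**
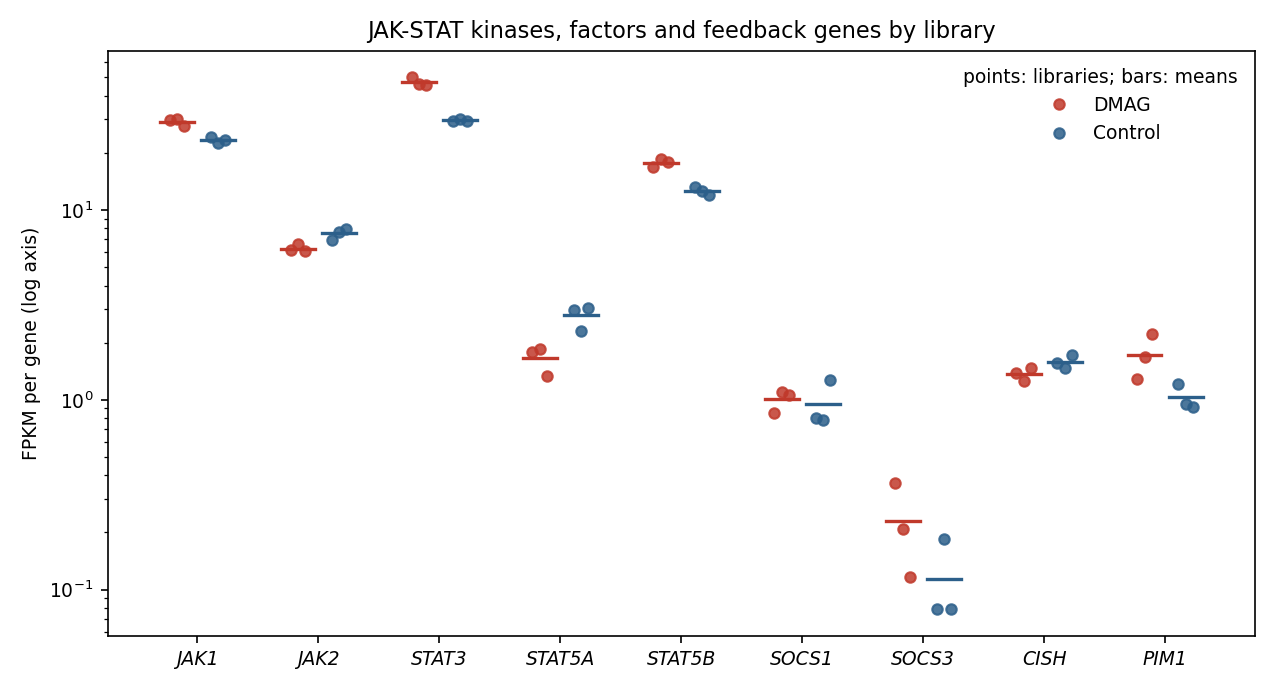
FPKM per gene on a log axis for the 9 JAK-STAT genes, with 1 point per library (red, DMAG; blue, Control; 3 each) and a bar at each group's mean. The DMAG points of STAT3, STAT5B, JAK1 and PIM1 lie above the control points, those of JAK2 and STAT5A lie below, and those of SOCS1, SOCS3 and CISH overlap.

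Levels spanned from STAT3, the most abundant of the 9 genes in both groups, to SOCS3, the least. With DMAG the order of mean FPKM was STAT3, JAK1, STAT5B, JAK2, PIM1, STAT5A, CISH, SOCS1 and SOCS3. The ranges of PIM1 and STAT5A overlapped, as did those of STAT5A and CISH. In controls the order was STAT3, JAK1, STAT5B, JAK2, STAT5A, CISH, PIM1, SOCS1 and SOCS3, where only the ranges of PIM1 and SOCS1 overlapped between neighbours. Among the genes tested, STAT3 stood at the 83.6th percentile of mean level and JAK1 at the 73.8th. STAT5B stood at the 54.4th and JAK2 at the 29.8th. CISH, PIM1 and SOCS1 stood between the 4.75th and 7.95th percentiles.

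JAK1 (ENSG00000162434; GRCh38.p14 chromosome 1, 64833229 to 65067746, minus strand) encodes the kinase shared by interferon, interleukin-6 and gamma-chain receptors. It had 29.6, 30.1 and 27.9 FPKM in the DMAG libraries, against 24.2, 22.6 and 23.5 FPKM in the control libraries. Every DMAG library was above every control library, and JAK1 rose by 0.31 on the log2 scale (SE 0.0459, 95% interval 0.20 to 0.42, limma adjusted p = 0.0024), 1.25-fold in mean FPKM. The table lists 1 transcript for it.

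JAK2 (ENSG00000096968; chromosome 9, 4984390 to 5129948, plus strand) encodes the kinase that erythropoietin, thrombopoietin and interleukin-3 family receptors use. Its FPKM was 6.13, 6.59 and 6.05 with DMAG, against 6.97, 7.66 and 7.93 in controls. The groups were apart but close, and JAK2 fell by 0.23 on the log2 scale (SE 0.0645, 95% interval -0.39 to -0.07, limma adjusted p = 0.027), which is 1.20-fold lower in mean FPKM. The call was lost without DMAG replicate 1 (adjusted p = 0.076), DMAG replicate 3 (0.076), Control replicate 2 (0.077) or Control replicate 3 (0.079), and after rescaling to the common total (adjusted p = 0.11). JAK1 was 4.83, 4.57 and 4.61 times the FPKM of JAK2 in the DMAG libraries, against 3.47, 2.95 and 2.96 times in the control libraries. This ratio could not overlap between groups, since every DMAG library was above controls for JAK1 and below them for JAK2. Its p was thereby fixed (exact permutation test, two-sided p = 0.10, the smallest that 3 against 3 libraries allow) and adds nothing to the calls. The ratio is 1 of 3 computed, all chosen after the values were seen, and each had an adjusted p of 0.10.

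The fall of JAK2 was called for the summed transcripts, and no transcript of it passed. ENST00000381652, 77.0% of the gene's FPKM, was at 5.89, 4.43 and 5.50 FPKM with DMAG and at 6.31, 5.19 and 4.49 FPKM in controls. These overlapped, and the transcript had a log2 change of -0.01 (95% interval -0.40 to 0.38, limma adjusted p = 0.98 over 26969 transcripts tested), an interval that includes the change of the gene. ENST00000636127 was listed at 0, 2.03 and 0.152 FPKM with DMAG and at 0, 2.09 and 3.20 FPKM in controls, so the division of fragments between these transcripts differed among libraries of the same group. In RefSeq the span of INSL6 on the other strand covers 137973 bases of JAK2. The libraries were made with a strand-marking step, but whether counting used strand is not given in the sources used here.

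STAT3 (ENSG00000168610; chromosome 17, 42313324 to 42388442, minus strand) encodes the factor that answers interleukin-6 and G-CSF. Its FPKM was 50.0, 46.1 and 45.5 with DMAG, against 29.6, 30.2 and 29.4 in controls. The groups were far apart relative to their spread, and STAT3 rose by 0.65 on the log2 scale (SE 0.0454, 95% interval 0.54 to 0.76, limma adjusted p = 1.6e-04), 1.59-fold in mean FPKM. Of the tested genes among the 9, STAT3 had the smallest adjusted p.

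The abundant transcripts of STAT3 were both higher with DMAG. ENST00000264657 averaged 26.0 ± 1.26 FPKM with DMAG and 17.5 ± 0.727 FPKM in controls (SD, n = 3 each; log2 change 0.54, limma adjusted p = 0.0058). ENST00000404395 averaged 19.0 ± 1.16 FPKM with DMAG and 10.4 ± 0.842 FPKM in controls (log2 change 0.82, limma adjusted p = 0.0049). The share of the gene's FPKM given to ENST00000404395 was 40.7%, 40.0% and 40.1% with DMAG, against 31.8%, 35.8% and 36.9% in controls, without overlap. The transcript ENST00000585517 averaged 1.33 ± 0.261 FPKM with DMAG and 1.27 ± 0.148 FPKM in controls and did not pass (adjusted p = 0.93).

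STAT5A (ENSG00000126561) and STAT5B (ENSG00000173757) encode the closely related factors of erythropoietin, thrombopoietin and interleukin-3 signalling. They lie head to head on chromosome 17, with STAT5A at 42287439 to 42311943 on the plus strand and STAT5B at 42199177 to 42288370 on the minus strand. STAT5B had 16.8, 18.5 and 17.9 FPKM with DMAG, against 13.2, 12.6 and 11.9 FPKM in controls. Every DMAG library was higher, and STAT5B rose by 0.46 on the log2 scale (SE 0.0566, 95% interval 0.33 to 0.60, limma adjusted p = 0.0011), 1.41-fold in mean FPKM. STAT5A moved the other way, with 1.79, 1.85 and 1.34 FPKM with DMAG, against 2.99, 2.30 and 3.06 FPKM in controls. Every DMAG library was lower, and STAT5A fell by 0.51 on the log2 scale (SE 0.118, 95% interval -0.80 to -0.22, limma adjusted p = 0.013), 1.68-fold in mean FPKM.

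STAT5A thus made up 9.61%, 9.08% and 6.94% of the summed FPKM of both STAT5 genes in the DMAG libraries, against 18.4%, 15.4% and 20.4% in the control libraries. These shares could not overlap between groups, since STAT5B was higher and STAT5A lower in every DMAG library. The sum itself averaged 19.4 ± 0.871 FPKM with DMAG and 15.4 ± 0.716 FPKM in controls. The ratio of STAT5B to STAT5A averaged 10.9 ± 2.16 with DMAG and 4.61 ± 0.809 in controls (exact permutation test, two-sided p = 0.10, the smallest possible and fixed for the same reason). The ratio of STAT3 to STAT5B averaged 2.67 ± 0.266 with DMAG and 2.36 ± 0.118 in controls (the same exact permutation test, p = 0.10).

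These paralogs are similar in coding sequence and their RefSeq spans overlap by 932 bases on opposite strands, so fragments could be split between them, and the value of STAT5A, the rarer of the 2, is uncertain to that extent. Of the 7 transcripts listed for STAT5A, ENST00000590949 held 75.3% of the FPKM. It was at 1.20, 1.50 and 0.986 FPKM with DMAG and at 2.28, 1.84 and 2.22 FPKM in controls. The groups were apart, but the transcript by itself did not pass (log2 change -0.49, limma adjusted p = 0.11 over all transcripts). STAT5B was nearly all ENST00000293328, which did pass (log2 change 0.46, adjusted p = 0.013). Of the 26 transcripts of the 9 genes, 11 reached a mean of 0.5 FPKM. Of these, 4 were higher, those of JAK1, STAT3 and STAT5B, and 0 were lower (limma, where 10.3% of all transcripts were called). At an unadjusted p under 0.05, 4 were higher and 1 lower.

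**Figure D2:**
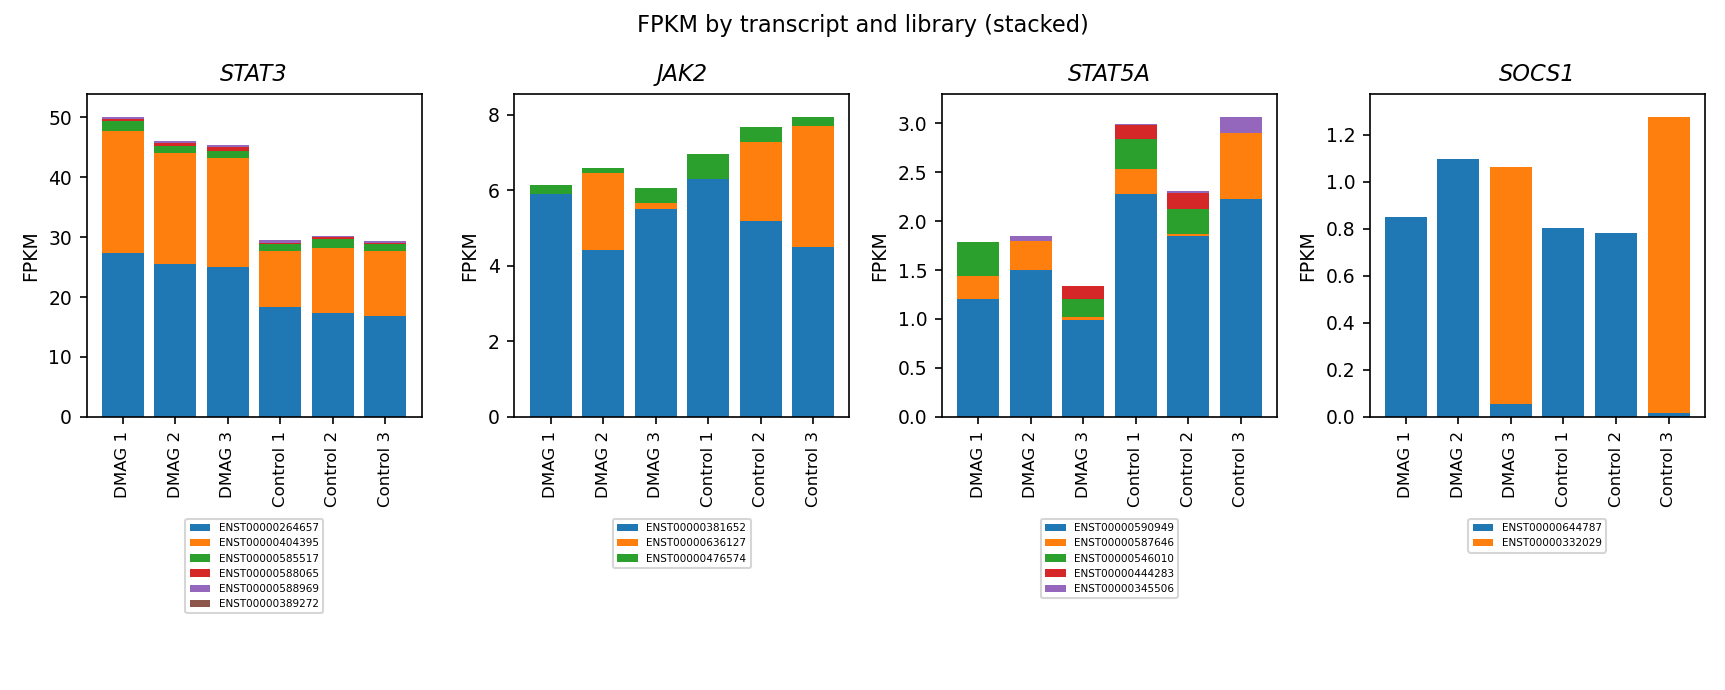
FPKM of each transcript, stacked, for STAT3, JAK2, STAT5A and SOCS1 in the 3 DMAG and 3 Control libraries (each panel has its own linear axis from 0). Both large parts of STAT3 are taller with DMAG, while the division of JAK2 and SOCS1 between transcripts changes from library to library within a group.

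The feedback genes stood low. CISH (ENSG00000114737; chromosome 3, 50606489 to 50611774, minus strand), an SH2-domain protein that binds activated receptors and whose promoter is printed above, had 1.38, 1.25 and 1.48 FPKM with DMAG, against 1.57, 1.46 and 1.73 FPKM in controls. The groups overlapped by DMAG replicate 3 and Control replicate 2 alone. Its log2 change was -0.13 (SE 0.0741, 95% interval -0.30 to 0.05, limma adjusted p = 0.21), an interval that leaves out rises above 0.05. The RefSeq span of MAPKAPK3, on the other strand, covers 255 bases at the start of CISH.

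SOCS1 (ENSG00000185338; chromosome 16, 11254417 to 11256204, minus strand) encodes an inhibitor that blocks the JAK kinase domain. It was at 0.852, 1.10 and 1.06 FPKM with DMAG and at 0.804, 0.782 and 1.27 FPKM in controls. The groups overlapped fully (log2 change 0.04, SE 0.118, 95% interval -0.24 to 0.33, limma adjusted p = 0.78). Without Control replicate 1 or 2 the log2 change was -0.01 and -0.02, and it did not pass in either case. The table gave all of SOCS1 to ENST00000644787 in replicates 1 and 2 of both groups, and nearly all of it to ENST00000332029 in DMAG replicate 3 (95.0% of the gene's FPKM) and Control replicate 3.

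SOCS3 (ENSG00000184557; chromosome 17, 78356778 to 78360925, minus strand), the inhibitor that acts at the interleukin-6 and G-CSF receptors, was near 0. It had 0.366, 0.208 and 0.117 FPKM with DMAG and 0.0791, 0.184 and 0.0789 FPKM in controls, which overlap. Without the filter on low values it entered the test and did not pass (log2 change 0.14, limma adjusted p = 0.26).

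PIM1 (ENSG00000137193; chromosome 6, 37170152 to 37175428, plus strand) was at 1.29, 1.67 and 2.21 FPKM with DMAG and at 1.22, 0.951 and 0.920 FPKM in controls. The groups were apart, by little between DMAG replicate 1 and Control replicate 1, and the DMAG libraries were spread widely. PIM1 rose by 0.42 on the log2 scale (SE 0.137, 95% interval 0.08 to 0.75, limma adjusted p = 0.046), 1.68-fold in mean FPKM. Its call was the least secure of the 6. It was lost without DMAG replicate 2 (adjusted p = 0.098), DMAG replicate 3 (0.095), Control replicate 1 (0.055), Control replicate 2 (0.12) or Control replicate 3 (0.12), and with no filter on low values (adjusted p = 0.066). DMAG replicate 3, the library with erythroid mRNA, had the highest value, and without it the log2 change was 0.29.

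The other kinases and factors of the family went in both directions. STAT2, a factor of the type I interferon response, rose to 14.1 ± 0.326 FPKM with DMAG, against 9.46 ± 0.282 FPKM in controls (log2 change 0.53, limma adjusted p = 2.9e-04), a call lost with only its most abundant transcript (adjusted p = 0.14). STAT6, the factor of interleukin-4, fell to 16.2 ± 0.389 FPKM with DMAG, against 19.4 ± 1.99 FPKM in controls (adjusted p = 0.037). The call for STAT6 was lost without any 1 of the DMAG replicates or without Control replicate 1 or 2 (adjusted p between 0.055 and 0.098), and after rescaling to the common total (adjusted p = 0.17) or with only its most abundant transcript (0.61). The kinase TYK2 did not pass, at 21.3 ± 3.33 FPKM with DMAG and 19.5 ± 0.631 FPKM in controls (adjusted p = 0.42). JAK3, at 0.0933 FPKM, and STAT4, at 0.0293 FPKM, had values above 0 only in DMAG replicate 3.

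Of the other SOCS genes, SOCS2, a feedback inhibitor of growth hormone and STAT5 signalling, was lower, with 0.944, 1.13 and 0.701 FPKM with DMAG, against 1.48, 1.97 and 2.78 FPKM in controls. The groups did not overlap (log2 change -0.66, SE 0.170, limma adjusted p = 0.020), and SOCS2 was 2.24-fold lower in mean FPKM. Without DMAG replicate 1, DMAG replicate 3 or Control replicate 2 the adjusted p was 0.054, 0.061 and 0.051, and with only its most abundant transcript 0.083. SOCS4 rose 1.25-fold (adjusted p = 0.034, lost without DMAG replicate 1 or 3 or Control replicate 2 or 3, at 0.067 to 0.098, or with only its most abundant transcript, at 0.27). SOCS7 fell 1.20-fold (adjusted p = 0.018, or 0.055 without Control replicate 1, 0.059 without Control replicate 3 and 0.10 after rescaling to the common total). With only the most abundant transcript SOCS7 had a log2 change of -0.07 (adjusted p = 0.42). SOCS5 did not pass, at 8.06 ± 0.280 FPKM with DMAG and 8.55 ± 0.387 FPKM in controls, and SOCS6 was listed at 0 in every library. The other PIM kinases stood above PIM1 in level. PIM3 fell to 19.1 ± 1.04 FPKM with DMAG, against 25.8 ± 1.28 FPKM in controls (log2 change -0.41, limma adjusted p = 0.0017). PIM2 was at 22.2 ± 0.821 FPKM with DMAG and 24.1 ± 1.09 FPKM in controls and did not pass (adjusted p = 0.097).

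Among 16 further negative regulators 15 were tested, of which 4 rose, 4 fell and 7 did not pass (median log2 change -0.00, against -0.01 over all genes, of which 48.6% were called). PTPRC, the leukocyte phosphatase CD45 that can dephosphorylate JAKs, rose to 60.6 ± 5.51 FPKM with DMAG, against 35.3 ± 0.490 FPKM in controls (log2 change 0.76, limma adjusted p = 3.3e-04). CBL, a ubiquitin ligase of activated receptors, rose 1.36-fold (adjusted p = 3.9e-04). PTPN6, the phosphatase SHP-1 that damps cytokine receptors, fell to 37.4 ± 1.15 FPKM with DMAG, against 54.7 ± 2.05 FPKM in controls (log2 change -0.54, adjusted p = 2.3e-04). The most abundant transcript of PTPN6 by itself changed sign, at 1.51 on the log2 scale, without passing (adjusted p = 0.33). DUSP3, a dual-specificity phosphatase, fell 1.37-fold (adjusted p = 0.0010). PTPN11, the phosphatase SHP-2, fell 1.09-fold (adjusted p = 0.014), a call lost after rescaling to the common total (adjusted p = 0.50). SH2B1, named after its values were seen and known as an enhancer of JAK2 although it stands in this list, rose to 10.1 ± 0.766 FPKM with DMAG, against 8.45 ± 0.215 FPKM in controls (limma adjusted p = 0.024). SH2B3, an adaptor that restrains JAK2 and outside the naming rule, averaged 14.6 FPKM in both groups and did not pass (adjusted p = 0.95).

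Cytokine receptor subunits feed the kinases, and 17 of 32 were tested, with 10 higher, 3 lower and 4 not passing (median log2 change 0.19, against -0.01 over all genes, of which 22.4% were higher and 26.1% lower). IL6R, the ligand-binding chain of the interleukin-6 receptor, had 14.3, 14.8 and 15.3 FPKM with DMAG, against 6.16, 6.06 and 6.69 FPKM in controls. It rose by 1.12 on the log2 scale (SE 0.0540, limma adjusted p = 5.2e-05). Its signalling partner IL6ST, named after its values were seen, did not pass, at 1.31 ± 0.196 FPKM with DMAG and 1.73 ± 0.208 FPKM in controls (adjusted p = 0.078). IL11RA, which also signals through IL6ST, rose to 8.37 ± 0.0983 FPKM with DMAG, against 2.80 ± 0.491 FPKM in controls (adjusted p = 2.0e-04). IL4R rose 2.22-fold (adjusted p = 2.9e-04) and IL2RG, the common gamma chain that pairs with JAK3, 1.92-fold (adjusted p = 0.0046). With only the most abundant transcript neither passed (adjusted p = 0.58 and 0.25). IFNGR1 rose 1.14-fold (adjusted p = 0.016, or 0.052 without DMAG replicate 2), and its most abundant transcript alone stood at -0.21 on the log2 scale and did not pass. IL9R, which also uses the common gamma chain, fell by 2.53 on the log2 scale (adjusted p = 9.0e-06) and was 13.0-fold lower in mean FPKM.

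**Figure D3:**
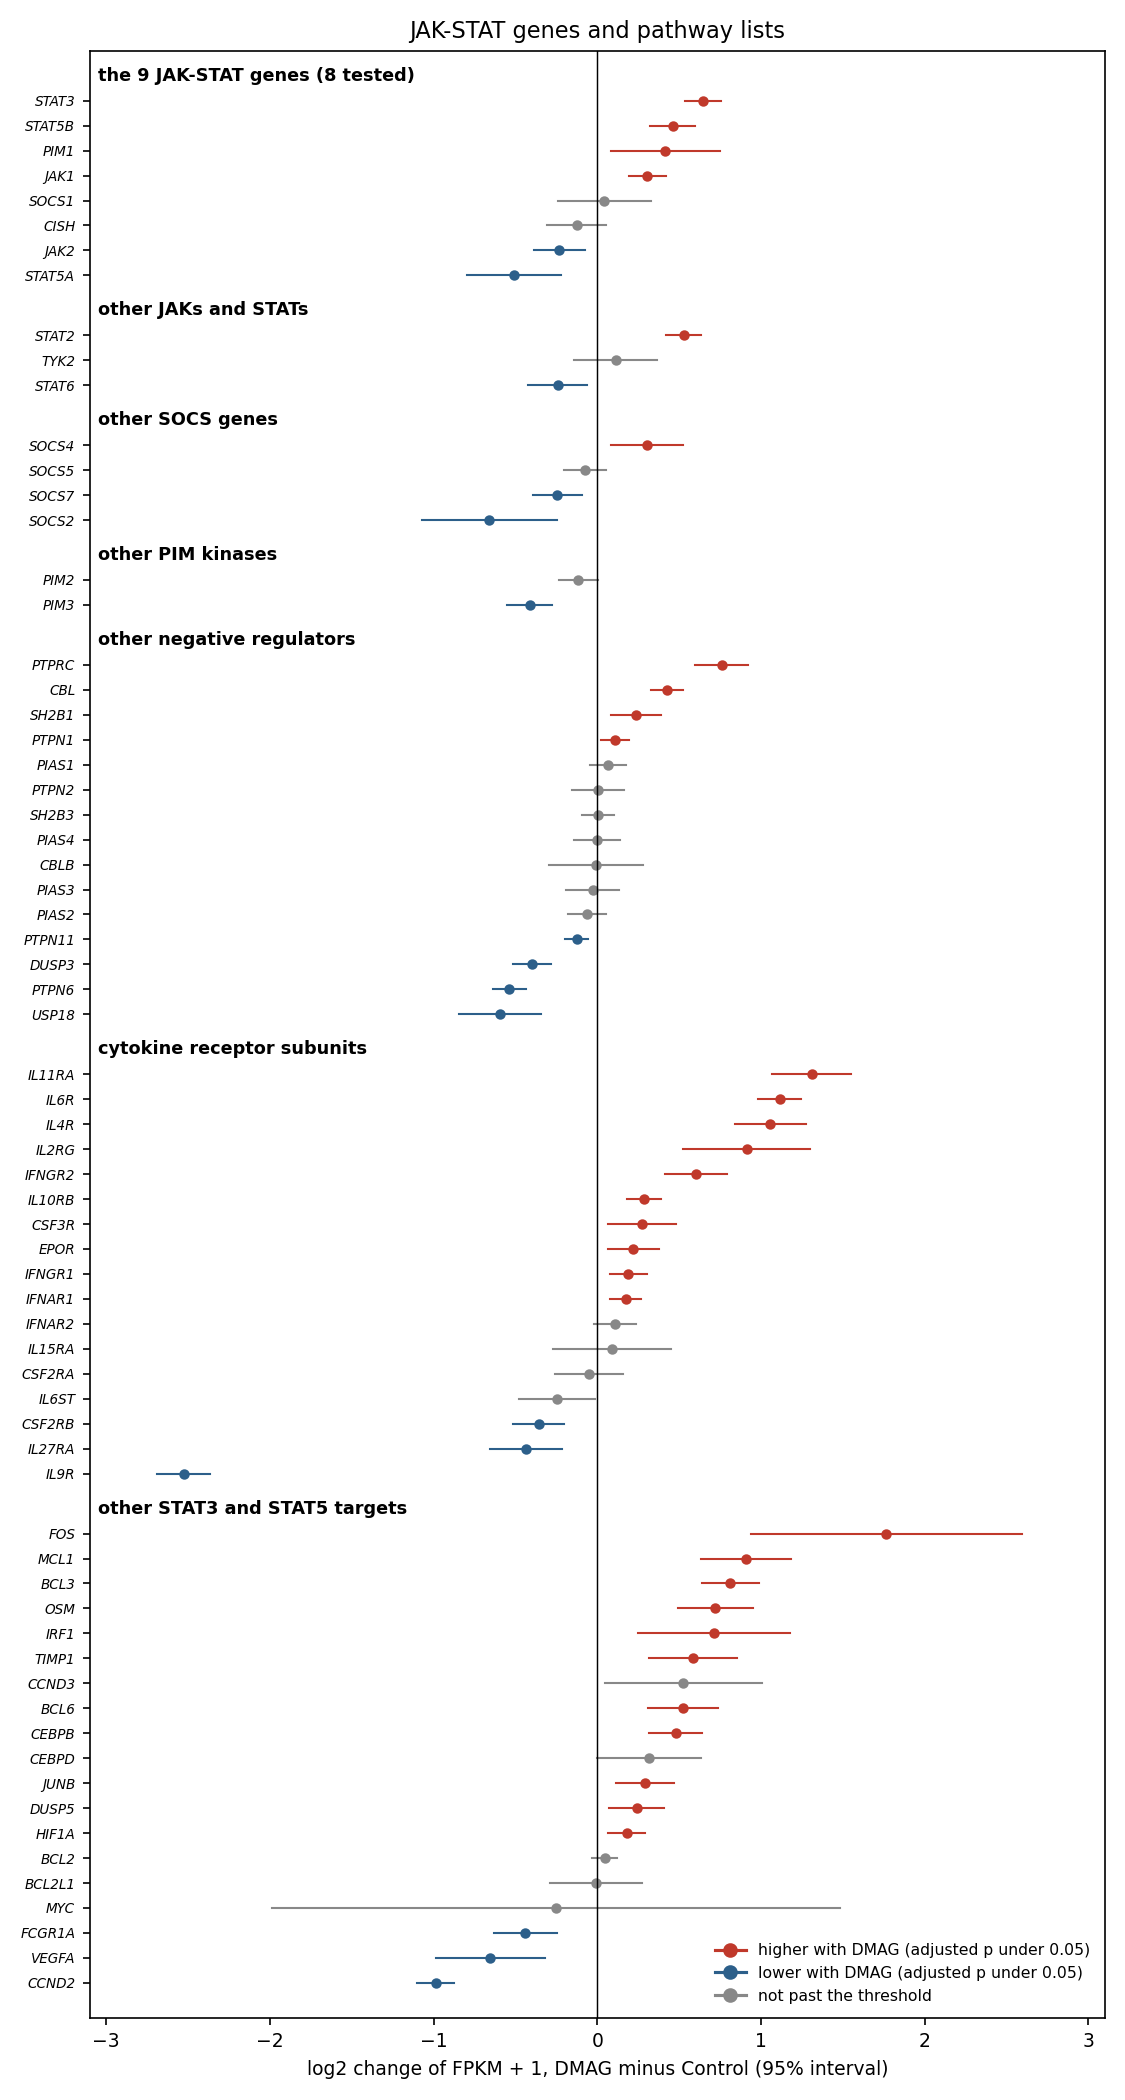
Log2 change of FPKM + 1 (DMAG minus Control, points) with 95% intervals (lines) for the 8 tested JAK-STAT genes and tested genes of the pathway lists around them, coloured by call. PIM2 and PIM3 lie below 0, and the other lists and the 8 JAK-STAT genes have genes on both sides, from IL9R at -2.53 to FOS at 1.76.

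Other genes known as STAT3 or STAT5 targets had 19 of 26 tested, with 11 higher, 3 lower and 5 not passing (median log2 change 0.32, against -0.01 over all genes, of which 22.4% were higher and 26.1% lower). MCL1, a survival protein of the BCL2 family, rose to 86.1 ± 12.0 FPKM with DMAG, against 45.3 ± 4.23 FPKM in controls (log2 change 0.91, limma adjusted p = 0.0012). OSM, the cytokine oncostatin M, was at 1.29 ± 0.0108 FPKM with DMAG and 0.393 ± 0.154 FPKM in controls (limma adjusted p = 0.0014). Its control mean lay under the 0.5 FPKM filter. OSM thus entered the test only through the DMAG group, and its call among the 11 higher adds no support. CEBPB, a myeloid transcription factor, rose 1.42-fold (adjusted p = 0.0019). CCND2, the cyclin D2 gene, fell by 0.99 on the log2 scale (adjusted p = 4.8e-05). BCL2, an antagonist of apoptosis, did not pass, at 73.9 ± 1.42 FPKM with DMAG and 71.6 ± 1.05 FPKM in controls (adjusted p = 0.29). BCL3, named after its values were seen, was at 0.929 ± 0.0463 FPKM with DMAG and 0.0983 ± 0.0470 FPKM in controls. It averaged 0.513 FPKM over the 6 libraries and passed the 0.5 FPKM filter only through the DMAG group. Its call, counted among the 11 higher, therefore adds no support. Many of these genes are also driven by other pathways. Across all pathway lists, 41 of 61 tested genes were called, 27 higher and 14 lower, where 48.6% of all genes were called. After rescaling to the common total 36 were higher and 11 lower of 69 tested.

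For each called gene the 3 genes with the most similar profile were read out, by Pearson r of log2(FPKM + 1) over the 6 libraries among genes at 5 FPKM or more. For JAK1 these included TBL1X (r = 0.998) and CASP9 (r = 0.996), and for JAK2 HIST1H2BL, HSPE1 and MT1X (r between 0.991 and 0.998). For STAT3 they were SMIM10L1, FAF2 and ZNF217 (r between 0.998 and 0.999), and for STAT5B C6orf106, TSR2 and ZER1 (r between 0.997 and 0.999). STAT5A was closest to SOCS7 (r = 0.998), then REX1BD and DSTN, and PIM1 to COPS4 (r = 0.989), then WIPI2 and D2HGDH. With 6 libraries in 2 groups, high values were common for some of these genes and rare for others. At a lower bar than the values listed, r exceeded 0.95 for 842 of 8022 genes with STAT3. It did so for 82 of 8023 with STAT5A and for 21 of 8023 with PIM1. The similar profiles are a description only.

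**Figure D4:**
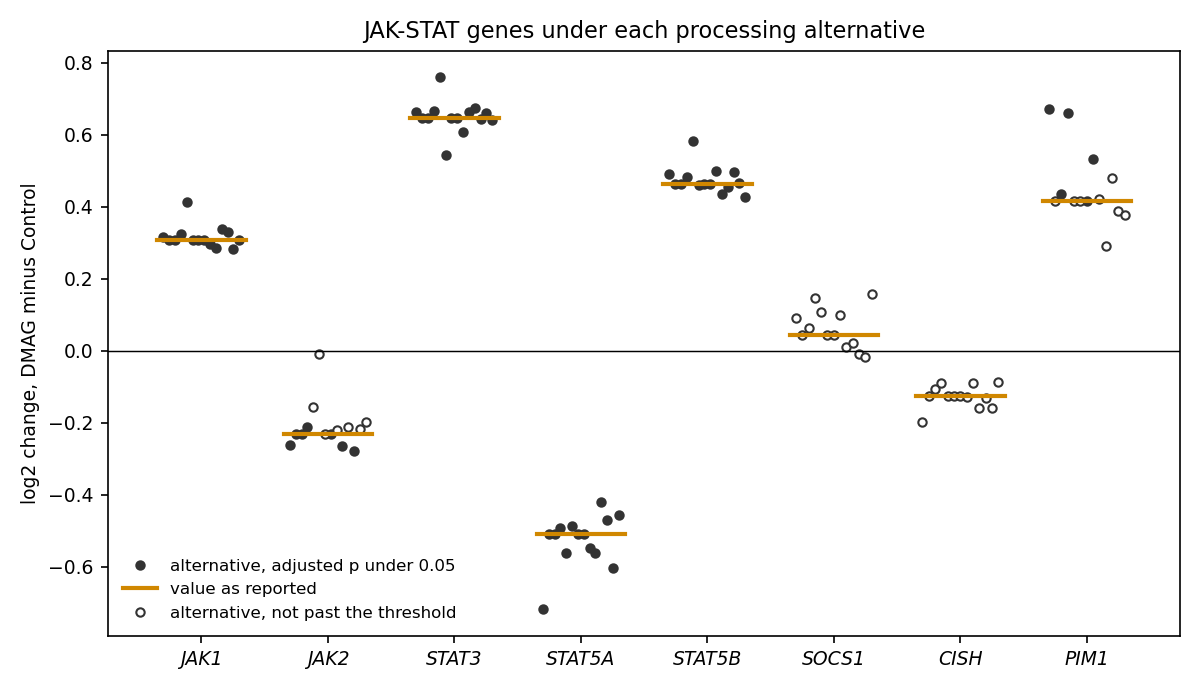
Log2 change (DMAG minus Control) of the 8 tested JAK-STAT genes as reported (bars) and under each alternative of processing or left-out library (points, filled where the adjusted p is under 0.05). STAT3, STAT5B, JAK1 and STAT5A keep filled points throughout, JAK2 and PIM1 have filled and open points, and SOCS1 and CISH have open points.

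Under all 14 alternatives STAT3, STAT5B, JAK1 and STAT5A kept their direction and their calls. The log2 change of STAT3 ran between 0.54 and 0.76, that of STAT5B between 0.43 and 0.58, that of JAK1 between 0.28 and 0.41 and that of STAT5A between -0.72 and -0.42. JAK2 kept its call under 7 of 14 and PIM1 under 5 of 13. Without DMAG replicate 3, STAT3, STAT5B and JAK1 were higher, STAT5A was lower, and 4 of 8 genes were called.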

How the data were processed

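GRCh38, StringTie 1.3.3, HISAT2 2.0.4 and Bowtie stand in the submitters' processing notes, with no roles. The authors deposited FPKM values per transcript, 1 column per library. How fragments were counted is not given in the sources used here. All 6 RNA-Seq columns were used and 0 columns lacked a sample. Low values of single-transcript genes shared a most frequent ratio between libraries (7 to 14 of 357 to 393 genes), which put depths at 0.974 to 1.10 times that of Control replicate 1. Only ratios near 1 were searched, so a large difference in depth could not have come out. The larger gene counts were taken before that limit. The absolute depth is unknown.

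Transcript FPKM was summed per gene, genes averaging 0.5 FPKM or more were kept, and log2(FPKM + 1) was tested with limma 3.58.1 (R 4.3.3, empirical Bayes with a mean trend), with Benjamini-Hochberg adjustment over the whole table and calls under 0.05. A log2 change on this scale understates the change of low genes. Transcripts were tested likewise. Means carry the SD over the 3 libraries of a group. Only the limma fit was tested on simulated data, in which far fewer genes changed than were called here.

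The genes and lists were chosen with earlier results of these data known. Named were the 9 genes, the other JAK, STAT, SOCS and PIM genes, and from each other list up to 4 called genes with the smallest p at 1 FPKM or more plus the 2 most abundant. Some genes these rules would name are not reported here. Alternatives were pseudocount, filters, scalings, transcript choice, variance trend, a block by replicate number and dropping libraries singly. RefSeq tables gave positions and promoters, and 9 of 9 genes matched. Small RNA, lncRNA and circular RNA tables were not used here.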

Additional observations from a re-analysis of the deposited data

How the results depend on the processing

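The pseudocount, both filters, median scaling and the variance trend left the number of JAK-STAT genes called at 5 or 6 and that of pathway genes between 36 and 41. With only the most abundant transcript of each gene, 3354 genes in all were called and 26 pathway genes, against 5050 and 41. The log2 change then turned to 1.51 for PTPN6 and -0.21 for IFNGR1, and neither passed. After rescaling to a common total without mitochondrially encoded genes SOCS5 turned to 0.017 and did not pass. The cause of these changes was not tested. Leaving out 1 library at a time gave between 4 and 5 JAK-STAT genes, between 2 and 4 of their transcripts, and log2 changes between -0.018 and 0.16 for SOCS1 and between -0.0029 and 0.20 for TYK2. The 2 transcripts resulted without DMAG replicate 2 or Control replicate 2.

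Same-numbered libraries had weak correlations over genes (-0.0048, 0.043 and 0.027), and not every library correlated best with its own number. Differently numbered libraries lay between -0.048 and 0.019. Such weak values cannot tell whether the numbers pair the libraries. With a replicate block 4491 genes, 4 JAK-STAT genes and 34 pathway genes were called. JAK2 had an adjusted p of 0.051 and PIM1 of 0.097. The block left 0 transcripts of the 9 genes called by limma, where 4 were higher at an unadjusted p under 0.05. Depth is unknown, so how far it limits SOCS3, SOCS1, CISH and PIM1 could not be given.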
